A study of Drosophila melanogaster with 3 samples.

Results

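Binding of the transcription factor Myc was examined at 10 core cell cycle genes of Drosophila melanogaster, taken by name from 13945 protein-coding genes: the cyclins CycA, CycB, CycB3, CycD and CycE, the cyclin-dependent kinases Cdk1, Cdk2 and Cdk4, and the Cdc25 phosphatases string (stg) and twine (twe). Peaks were credited to a gene when the summit lay within 500 bp of one of its transcription starts (promoter), elsewhere in the gene (body), or within 10 kb of either end (flank). The data are chromatin immunoprecipitation and sequencing (ChIP-seq) of embryos collected whole at 0 to 16 h, with both sexes pooled, in 3 biological replicates that form 1 group. All embryos were of the strain dm-GFP, which stably expresses Myc (fly gene dm) with GFP at its C terminus, and the antibody was directed against GFP. Binding of the tagged protein was therefore measured and not that of untagged Myc, and the labels used here do not give the promoter that drives the transgene or the level of the tagged protein. Whole embryos mix cell types and stages, so a weak peak in all cells and a strong peak in few cells cannot be told apart. No other genotype, treatment or stage belongs to the group, and the comparisons are between genes, positions and replicates.

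A cyclin-dependent kinase (Cdk) is active only when bound to a cyclin, and cyclins are made and destroyed in each cell cycle. In flies Cyclin E with Cdk2 drives S phase, Cdk1 with the cyclins A, B and B3 drives mitosis, and Cyclin D with Cdk4 promotes growth as well as division. Cdc25 phosphatases remove an inhibitory phosphate from the Cdk: string does this in the mitotic cycles of the embryo, where its transcription sets when cells divide after the blastoderm stage, and twine does it in the germ line and in the earliest divisions. Myc pairs with Max and binds E-boxes, of which CACGTG is the canonical form, and is known in flies for driving growth.

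Sequences at 6 sites are shown to let the positions below be compared with the DNA under them. They were read from the RefSeq genome, Release 6 (dm6), on the strand of the named gene. Capitals mark matches, on either strand, to 7 searched words: the canonical E-box CACGTG, the variant E-box CACGCG, a further variant E-box CATGTG, the DREF element TATCGATA, the Motif 1 core GGTCACAC, and the E2F words TTTCGCGC and TTTGGCGC. The first pair are the summits of the promoter peaks of CycB3 (chr3R:24870844-24870944, minus strand, Motif 1 core) and Cdk2 (chr3R:20735530-20735622, plus strand, DREF element). These are the strongest and the weakest thresholded promoter peaks of the 10 genes. The bases around the pooled Cdk1 summit (chr2L:10386289-10386389, minus strand) hold none of the words and have a GC content of 24.8%. The strongest Cdk1 promoter summits of replicates 1, 2 and 3 lay further upstream, at 151, 197 and 193 bp from the start, outside these bases. The bases before the CycA start (chr3L:11833579-11833698, minus strand) hold a DREF element, and those before the stg start (chr3R:29255801-29255920, minus strand) hold overlapping CATGTG matches and an E2F word although no thresholded peak lies there. The last is the strongest peak credited to any of the 10 genes, in an intron of the neighbour gene cropped (crp) upstream of twe (chr2L:16269572-16269672, minus strand), which holds CACGTG and, nearer the summit, the variant CATGTG.
CycB3 promoter summit: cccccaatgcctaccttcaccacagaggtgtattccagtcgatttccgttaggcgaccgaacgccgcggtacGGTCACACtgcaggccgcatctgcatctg
Cdk2 promoter summit: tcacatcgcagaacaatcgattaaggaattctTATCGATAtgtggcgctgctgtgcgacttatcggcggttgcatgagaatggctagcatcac
Cdk1 promoter summit: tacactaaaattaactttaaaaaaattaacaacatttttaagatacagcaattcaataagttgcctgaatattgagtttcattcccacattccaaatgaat
CycA upstream of the start: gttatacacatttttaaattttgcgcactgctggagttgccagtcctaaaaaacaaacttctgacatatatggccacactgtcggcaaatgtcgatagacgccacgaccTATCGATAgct
stg upstream of the start: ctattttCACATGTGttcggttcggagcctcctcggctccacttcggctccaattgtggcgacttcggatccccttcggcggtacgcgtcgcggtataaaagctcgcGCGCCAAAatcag
crp intron summit: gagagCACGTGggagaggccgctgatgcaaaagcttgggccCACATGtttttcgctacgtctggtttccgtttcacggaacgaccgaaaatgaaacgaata

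Peaks came from the authors' list thresholded by irreproducible discovery rate (IDR, a measure of how alike peaks rank in replicates), with 4371 peaks on dm6, and from relaxed lists that also keep weak peaks: 29853, 26058 and 25842 peaks in replicates 1, 2 and 3 and 24667 in the pooled data. The signal of a peak is the score its caller gave it, as deposited, and the depth of the libraries is unknown here. The IDR peaks were exactly the 4371 strongest peaks of the pooled list: the weakest had a signal of 110.323 and the strongest pooled peak left out had 110.322. A gene's place in the IDR list is therefore a matter of its pooled signal, and 3767 IDR peaks (86.2%) had a summit within 100 bp in all 3 relaxed lists. To compare replicates, each replicate's signals were scaled to the median that the IDR peaks had in it (66.3, 53.2 and 64.5 in replicates 1, 2 and 3), and the scaled value is called the relative signal. The 4371 strongest peaks of a replicate are called its top list.

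Of the 10 genes, 7 had an IDR peak at a promoter: CycA, CycB, CycB3, CycD, Cdk1, Cdk2 and Cdk4. CycE, stg and twe had none. Of all protein-coding genes, 26% had such a peak (3619 genes, 95% Wilson interval 25.2 to 26.7%, counting error only). The promoter peaks were of low to middling signal. The pooled signal was 182.6 at CycB3, 166.2 at CycA, 163.2 at Cdk1, 148.9 at Cdk4, 122.2 at CycB, 114.1 at CycD and 110.5 at Cdk2, with a median of 148.9, against a median of 197 and a lower quartile of 145 over the 3619 bound genes. No bound member (0 of 7) exceeded the median of bound genes. The 3 weakest, CycB, CycD and Cdk2, had 8.95%, 3.18% and 0.0553% of bound genes below them, and the Cdk2 peak held rank 4367 of 4371.

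**Figure D1:**
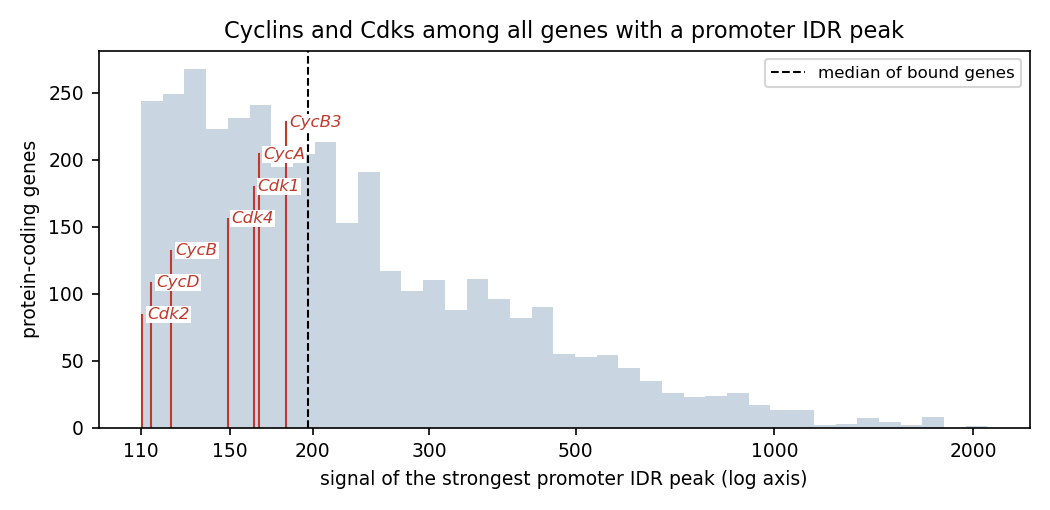
Histogram of the signal of the strongest promoter IDR peak (log axis) over the 3619 protein-coding genes with one, with the 7 cyclin and Cdk genes marked by red lines whose heights serve only to separate the names. All 7 lie left of the dashed line, the median of 197, and Cdk2 lies at the lower end.

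The mitotic cyclins all had a promoter peak. CycA, needed for entry into mitosis, had its summit 72 bp downstream of its single start, in the 5′ UTR (peak at 3L, 11833281 to 11833730). Its signal was 80.6, 37.7 and 55.4 in replicates 1, 2 and 3, or 0.928 ± 0.260 in relative terms (SD, n = 3). Replicate 1 was the highest, and the peak stood in the top list of every replicate. These values are for summits within 100 bp of the pooled one. Replicate 2 had a stronger promoter peak 287 bp downstream of the start (47.1). The strongest promoter peaks of the replicates gave a relative signal of 0.986 ± 0.199 (SD, n = 3). CycB, which with Cdk1 drives the entry into mitosis, had a summit 84 bp upstream of a start (2R, 22806807 to 22807256) with signals of 58.8, 32.6 and 38.0 (relative signal 0.697 ± 0.165, SD, n = 3). Replicate 1 was again the highest and was the one replicate whose top list held the peak. CycB3, which in flies promotes the onset of anaphase, had the highest pooled promoter signal of the 10 genes, 78 bp upstream of its start (3R, 24870669 to 24871118). Its signals were 75.2, 72.9 and 35.3 (relative signal 1.02 ± 0.424, SD, n = 3). In relative terms replicate 2 was the highest (1.37), replicate 1 followed (1.13), and replicate 3 was the lowest (0.547) and put the peak at rank 4994, outside its top list.

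The G1 cyclins differed. CycD, partner of Cdk4, had 2 summits upstream of its single start on X in the pooled relaxed list, at 459 bp (signal 114.1, in the IDR list) and at 157 bp (105.7, rank 4621, just outside it). The replicates differed in the position of their strongest peak. The strongest promoter peak lay 63 bp upstream in replicate 1 (signal 42.8) and 38 bp upstream in replicate 2 (41.9), but 453 bp upstream in replicate 3 (66.3). Replicate 1 also listed a weaker peak 447 bp upstream (33.5, rank 6304), outside its top list. At whichever position, a CycD promoter peak stood in all 3 top lists, and its relative signal was 0.820 ± 0.194 (SD, n = 3). CycE, partner of Cdk2, had no promoter IDR peak and is described below with its more distant peaks.

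Each of the 3 kinases had a promoter peak. The Cdk1 summit lay 77 bp upstream of its single start (2L, 10386114 to 10386563), in a window that also holds a start of mRpS7, a mitochondrial ribosomal protein gene, so the peak cannot be assigned to either gene. The other 6 promoter peaks had no second coding start within 500 bp. The strongest Cdk1 promoter peaks of the replicates had signals of 64.6, 35.9 and 57.7 (relative signal 0.848 ± 0.155, SD, n = 3), with replicate 2 the lowest. Their summits lay 151, 197 and 193 bp upstream, so that with a limit of 100 bp only the peak of replicate 1 matched the pooled summit. Cdk2, the partner of Cyclin E, had a summit 43 bp upstream of its start (3R, 20735355 to 20735804) with signals of 50.1 in replicate 1 and 39.2 in replicate 3. Replicate 2 listed no promoter peak of Cdk2 even at the relaxed threshold. Cdk4 has 5 annotated starts, and its promoter peak (2R, 16580477 to 16580926) lay inside the gene, 131 bp upstream of an internal start. Its signals were 53.4, 61.5 and 26.5 (relative signal 0.791 ± 0.372, SD, n = 3), and, as at CycB3, replicate 3 was the lowest and fell outside its top list.

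**Figure D2:**
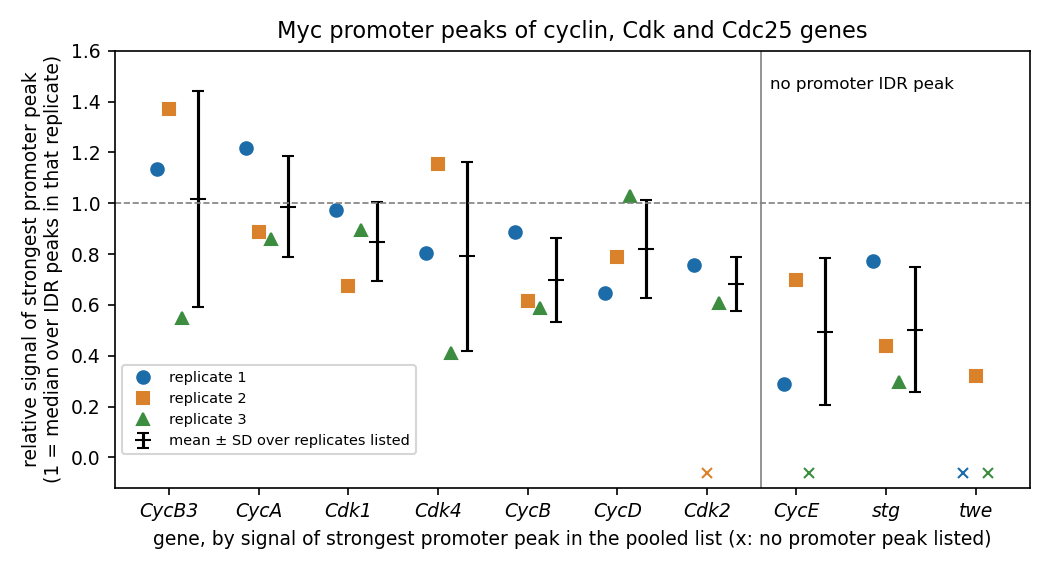
Relative signal of the strongest promoter peak of each gene in replicates 1 (circles), 2 (squares) and 3 (triangles), where 1 (dashed line) is the median over IDR peaks found in that replicate; bars give the mean ± SD over the replicates that list a peak, and crosses mark replicates that list none. CycB3 and Cdk4 spread the most, with replicate 3 lowest, while CycE, stg and twe, right of the vertical line, have 0.494 (mean, n = 2), 0.502 (mean, n = 3) and 0.319 (1 replicate).

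The order of the promoter peaks by pooled signal was not fixed by the replicates. It was checked on the strongest promoter peak of each gene in each replicate, wherever in the window the summit lay. For neighbours in that order, the gene with the higher pooled signal also had the higher relative signal in 1 of 3 replicates for CycB3 over CycA, for Cdk4 over CycB and for CycB over CycD. It had it in 2 of 3 replicates for CycA over Cdk1 and for Cdk1 over Cdk4, and in 1 of the 2 replicates that list both for CycD over Cdk2. The mean difference in relative signal was 0.0308 ± 0.411 (SD, n = 3) between CycB3 and CycA, 0.139 ± 0.152 (SD, n = 3) between CycA and Cdk1, and 0.0942 ± 0.391 (SD, n = 3) between Cdk4 and CycB. For each pair of neighbours the mean difference was smaller than its SD, and no p is given for these differences.

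Support in single replicates was uneven. Of all IDR peaks, 86.2% had a summit within 100 bp in all 3 relaxed lists. Of the 7 promoter peaks, 4 had one (CycA, CycB, CycB3 and Cdk4). Counting any promoter summit, the top lists of replicates 1, 2 and 3 held 8, 5 and 4 of the 10 genes, where they held 26.4%, 24.6% and 24.5% of all protein-coding genes. CycA and CycD were the 2 genes with a promoter summit in all 3 top lists, against 18.2% of all genes. The relaxed lists held 9, 9 and 8 of the 10 genes, against 56.2%, 53.5% and 52.8% of all genes, and 7 of the 10 (CycA, CycB, CycB3, CycD, Cdk1, Cdk4 and stg) were in all 3, against 42.4%. In the pooled relaxed list every member except twe had a promoter summit (9 of 10), against 54% of all genes.

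CycE had IDR peaks upstream, at the starts of other genes. The gene spans 20570 bp (2L, 15727581 to 15748150, minus strand) and has 3 annotated starts. The stronger peak (15752090 to 15752539) lay 4165 bp upstream of the nearest CycE start and 52 bp into the 5′ UTR of Mtr4, an RNA helicase gene of the nuclear exosome. Its signals of 128.8, 71.7 and 65.9 gave a relative signal of 1.44 ± 0.466 (SD, n = 3), with replicate 1 well above the others and the peak in all 3 top lists. The other (15750929 to 15751378) lay 3004 bp upstream of CycE and 76 bp upstream of ND-B17, which codes for a subunit of mitochondrial complex I. Its signals were 65.8, 32.8 and 72.2 (relative signal 0.909 ± 0.262, SD, n = 3), and replicate 2 was the low one and did not have it in its top list. No IDR peak lay inside CycE. Of genes longer than 10000 bp, 26.0% had an IDR peak in the body, against 5.56% of all protein-coding genes.

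Within CycE, peaks below the IDR list were spread along the gene. The strongest in the pooled list lay in an intron 382 bp upstream of an internal start (signal 83.9, rank 6364), next to one 672 bp upstream of that start (69.2). The summit at 382 bp also lay in an exon of the non-coding RNA gene lncRNA:CR44974. Another lay in an intron 5138 bp downstream of a start (66.0), and the weakest lay 263 bp downstream of a start in the 5′ UTR (44.1) and in a coding exon (43.2). The replicates put the strongest signal in the gene at different places. Replicate 2 had a peak 433 bp upstream of the internal start with a signal of 37.1 (rank 4129), replicate 3 had one 680 bp upstream with 41.4 (rank 4027), and both ranks are inside the top lists. In replicate 1 the strongest peak in the gene was the intron peak at 5116 bp, with a signal of 29.8 (rank 7522).

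String had no IDR peak within 10 kb, the one member of the 10 without any. The gene spans 3975 bp (3R, 29251826 to 29255800, minus strand), and the bases just before its start are among the sequences printed above. Its strongest promoter peak in the pooled relaxed list lay in the 5′ UTR, 350 bp downstream of the nearest start, with a signal of 72.6 (rank 7714). In replicates 1, 2 and 3 the strongest promoter summits lay 394, 301 and 228 bp downstream of the nearest start. Their signals were 51.3, 23.3 and 19.1 (relative signal 0.502 ± 0.245, SD, n = 3). Replicate 1 was more than the other replicates together and ranked its peak 3298th, inside its top list. Replicates 2 and 3 ranked theirs 8335th and 12006th. Away from the promoter, 2 weak peaks lay in coding exons, 1935 bp (56.8) and 1713 bp (43.3) downstream of a start. Upstream, peaks at 553 bp (67.4) and 792 bp (56.4) lay within 500 bp of the start of CG45544, and an intergenic peak at 9546 bp had the highest pooled signal near the gene (81.7, rank 6602). In the replicates that intergenic peak had signals of 20.5, 15.3 and 38.9, replicate 3 being the highest. Downstream, 1 peak (55.6) lay near the start of SP1029. The nearest IDR peaks stood 63.9 kb upstream, at the start of Cnx99A (signal 153), and 31.7 kb downstream, at the start of the translation elongation factor gene eEF1gamma (824).

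Twine had no promoter peak in the pooled list or in replicates 1 and 3. Replicate 2 listed weak ones, the strongest with a signal of 17.0 (rank 13550) and nearer to the start of CG4935 than to that of twe. All 4 IDR peaks within 10 kb of twe lay in or at other genes: 2 overlapping ones at the starts of PRL-1 and EndoGI downstream (179.0 and 146.8), and 2 in introns of crp, which codes for a helix-loop-helix transcription factor. The stronger crp peak (2L, 16269449 to 16269796), whose sequence is printed above, lay 7745 bp upstream of twe and held rank 29 of the IDR list, with a signal of 1114.7. Its replicate signals were 452.2, 386.4 and 275.5 (relative signal 6.12 ± 1.62, SD, n = 3), far above the IDR median in every replicate. The weaker one, 9739 bp upstream, had 82.2, 89.4 and 38.6 (relative signal 1.17 ± 0.544, SD, n = 3). The nearest annotated coding start to both was that of CG4935, 7481 and 9475 bp away.

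In all, 27 IDR peaks were credited to the 10 genes: 7 at promoters, 1 in a gene body and 19 in flanks. Within 10 kb, 9 of 10 genes had an IDR peak of some kind, against 64.3% of all protein-coding genes. Of all 4371 IDR peaks, 2991 lay within 500 bp of a start of a protein-coding gene. Of the 19 flank peaks, 15 lay within 500 bp of a start of another protein-coding gene. These included ribosomal protein genes, with RpL10Ab downstream of CycA (signals 420.6 and 199.1), RpS15 upstream of Cdk4 (271.6) and RpLP2 downstream of it (224.0). Near CycB the neighbour was blw, which codes for a subunit of the mitochondrial ATP synthase (367.1), and near Cdk1 it was the helix-loop-helix gene daughterless (da, 260.2) on one side and CG5096 (188.3) on the other. Near CycB3 a summit in CG11089 and CG31381 had a signal of 393.8 and CACGTG within 50 bp. The remaining neighbours were CG5946 near CycA (185.5) and CG4927 (116.8) and CG8306 (267.1) near Cdk4. At CycD and Cdk2 the promoter peak was also the strongest, and only, IDR peak within 10 kb. The 5 other genes with a promoter peak had a stronger one nearby.

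**Figure D3:**
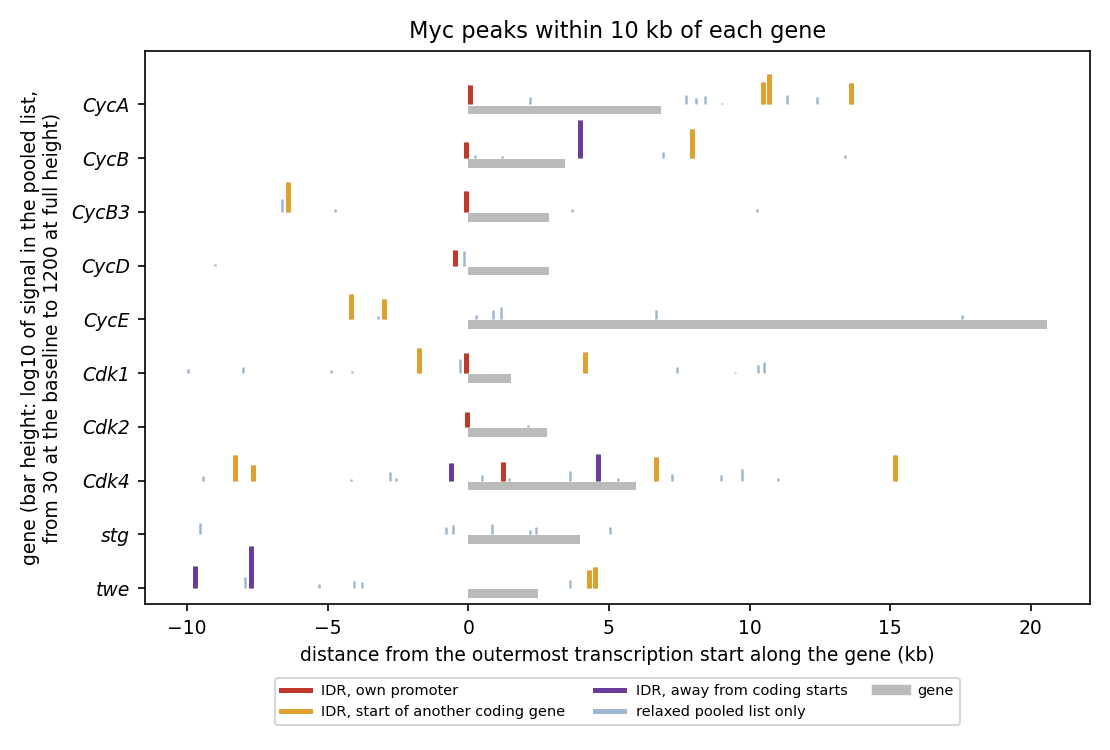
Peaks of the pooled list within 10 kb of each gene, by distance in kb from the outermost transcription start in the direction of transcription (grey bars: gene); bar height is the log10 of the signal from 30 at the baseline to 1200 at full height. Promoter IDR peaks (red) are shorter than many IDR peaks at the starts of neighbours (orange) or away from coding starts (purple), and stg has peaks of the relaxed list alone (blue).

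Peaks away from the start of any coding gene numbered 5. Each was found in all 3 relaxed lists, as were 86.2% of all IDR peaks, and 4 were in all 3 top lists. Beside the 2 crp intron peaks, the strongest lay 547 bp downstream of the end of CycB (2R, 22802798 to 22803137), in intergenic sequence, with a signal of 816.8 and rank 89. Its replicate signals were 259.5, 224.2 and 334.1 (relative signal 4.44 ± 0.662, SD, n = 3), every one several times that of the CycB promoter peak. The nearest start of any annotated gene was that of CycB itself, 3329 bp away, and none of the 7 words lay within 50 bp of the summit. Cdk4 had the 1 body peak of the 10 genes, in an intron (2R, 16583844 to 16584293), with a signal of 301.7. Its replicate signals were 131.6, 107.9 and 65.7 (relative signal 1.68 ± 0.571, SD, n = 3), each above that of the Cdk4 promoter peak. An IDR peak in the body was found in 5.56% of all protein-coding genes, and in 10.4% of genes of 5000 to 10000 bp, the length class of Cdk4. The summit lay 700 bp from the start of the antisense RNA gene asRNA:CR44375. The last was 601 bp upstream of Cdk4 (135.4), just outside the promoter window, with signals of 44.2, 49.5 and 52.9 (relative signal 0.806 ± 0.133, SD, n = 3). Its SD was the smallest of these 5 peaks, and its mean was also the lowest.

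Among the 7 promoter summits, 0 held CACGTG within 50 bp, as against 6.85% of the 2991 IDR promoter peaks. The 10 windows of 1001 bp around the outermost start held none either, against 12.9% of all protein-coding genes. Cdk2 had TATCGATA at its summit (6.75% of IDR promoter peaks), and CycB3 had GGTCACAC (5.22%). The variant E-boxes CATGTG (7.19%) and, less frequent, CACGCG (6.19%) and the E2F words TTTCGCGC and TTTGGCGC (0.334% and 0.769%) were at no member's promoter summit. In the start windows, CATGTG lay at 6 of 10 genes (CycA, CycB3, Cdk1, Cdk2, Cdk4 and stg, against 32.4% of all genes) and CACGCG at CycE (23.1%). The Cdk4 window lies around its outermost start and does not reach the Cdk4 promoter summit, which is near an internal start. TATCGATA lay 8 bp before the CycA start and 58 bp before that of Cdk2 (12.3% of all genes). GGTCACAC lay near the starts of CycB, CycB3 and twe (10.9%), and TTTGGCGC near those of CycB3 and stg (6.10%), while TTTCGCGC lay near none (3.46%). A word match describes the sequence and is not evidence of a site.

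The promoters most like that of CycB3 in relative signal over the 3 replicates, of 3152 candidate genes, were those of Cap-G, which codes for a condensin subunit, SPoCk, which codes for a calcium pump, and P32. Their largest log2 differences from CycB3 in any replicate were 0.09, 0.09 and 0.10. This likeness rests on 3 values per gene.

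Other cell cycle genes were counted in 7 lists of 48 genes in all, of which 28 (58.3%) had a promoter IDR peak, with a median signal of 180, again beside 26% of all genes and a median of 197. All 5 genes of the E2F and Rb list, transcription factors and their repressors at the start of S phase, had one, led by Dp (286), E2f2 (253) and Rbf2 (239). Of the mitotic kinases and spindle checkpoint genes 6 of 8 had one, led by BubR1 (204), aurA (173) and Bub3 (151), whose window also holds a start of Cap-D2. The kinase gene aurB and the checkpoint gene mad2 had none. Of the other cyclins 5 of 8 had one. CycK (373), CycT (304) and CycG (301) each had a signal above every member's, CycK and CycT being partners of kinases that act in transcription, and CycH, CycJ and CycY had none. Of the other Cdk genes 4 of 8 had one, led by Cdk12 (226), Eip63E (200) and Cdk7 (195), and Cdk5, Cdk8, Pitslre and the Cdk5 activator gene Cdk5alpha had none.

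Genes that restrain the Cdks or control their partners' breakdown were counted in the same way. Of the Cdk brakes and subunits 3 of 7 had a promoter IDR peak: Cks85A (260), tribbles (trbl, 217), which in flies promotes the breakdown of string protein, and Wee1 (179), the kinase that adds the phosphate Cdc25 removes. The Cdk inhibitor genes dacapo (dap) and roughex (rux), the kinase gene Myt1 and Cks30A had none. The ubiquitin ligase list holds genes of ligases and of their regulators, which control the breakdown of cyclins and other proteins. Of these, 3 of 8 had one, namely slmb (217), SkpA (131) and Cul1 (113). The genes fzy, fzr, cort, Rca1 and ago had none. Of the DNA damage checkpoint kinases, mei-41 (166) and grp (118) had one, and lok and tefu had none. Of the unbound genes of these 7 lists, Rca1 (102), lok (102), rux (100) and dap (99.5) had the promoter peaks nearest below the IDR list in pooled signal. Several of these windows also hold the start of another gene, among them those of Cks85A, slmb, SkpA, Cul1, Dp, E2f2, Rbf2, CycG, Cdk7, Cdk12, aurA, mei-41 and grp.

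**Figure D4:**
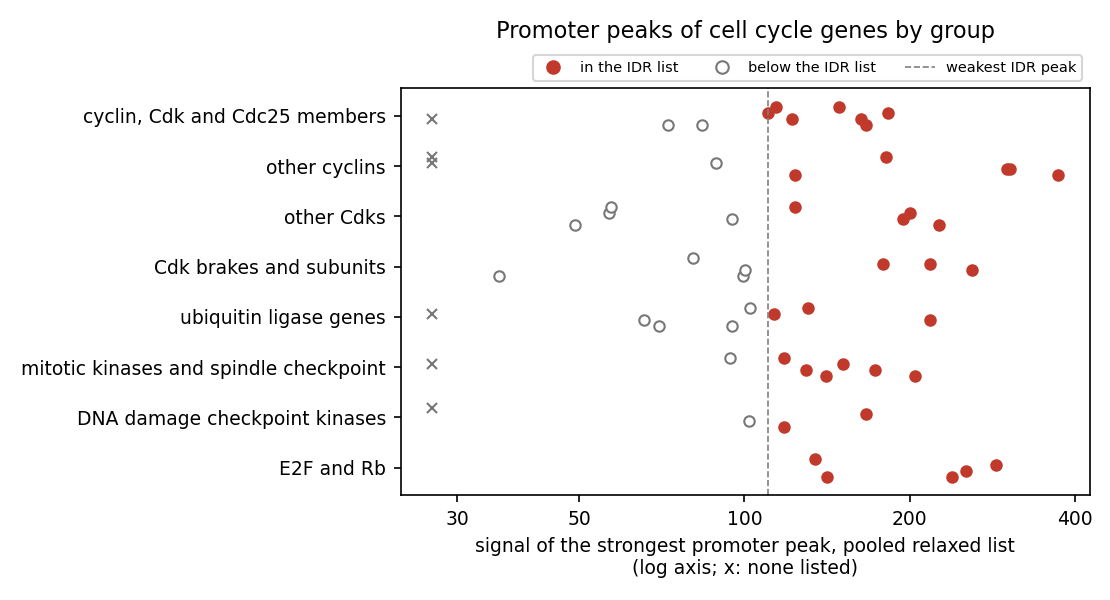
Signal of the strongest promoter peak in the pooled relaxed list (log axis) for the 10 genes and the other 7 lists, with 1 point per gene, filled where the peak is in the IDR list; the dashed line is the weakest IDR peak (110.323) and crosses mark genes with no promoter peak listed. The 10 genes reach 182.6, while every other list except the DNA damage checkpoint kinases has genes further right.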

How the data were processed

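Peak lists in narrowPeak format on dm6 were used: 1 relaxed list per replicate, 1 of the pooled replicates, and 1 thresholded by IDR. Per the deposited file listing, they were made from alignments with a control file. Which aligner, peak caller and IDR threshold were used is not given in the sources used here. Each peak's signal is the caller's score as deposited by the authors, and its scale is higher in pooled lists. The −log10 q value of each peak, deposited in the same lists, was read but not used for calls. Read depth is unknown. Control samples, signal tracks and dm3 lists were not analysed here.

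Gene models came from Ensembl release 115 (BDGP6.54), and sequences from the RefSeq genome. A summit within 500 bp of a start counted as promoter, and a replicate's peak was matched by a summit within 100 bp. Of the words, CATGTG stands also for its reverse complement CACATG, both strands being read. Matches were sought within 50 bp of summits and 500 bp of outermost starts. Counts stand beside the share of all protein-coding genes, with no test, since there is 1 group and members were picked by name. Members, lists and words were chosen with earlier results of these data known. Named genes were all members, up to 3 bound genes with the highest signal and up to 5 unbound genes of each list, genes at members' peaks, and the 3 promoters most like that of CycB3; genes sharing a window, the genes at the nearest IDR peaks of stg, and the 4 genes given with values under the IDR list, were named after their values were seen. Of the alternatives, 2 were chosen after seeing the data. Scripts (Python 3.11.15, pandas 2.3.3, NumPy 2.4.6, SciPy 1.17.1, matplotlib 3.10.9) were tested on simulated data. Wilson intervals cover counting error only, and SDs give the spread of the biological replicates that list the peak, 3 unless n = 2 is given.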

Additional observations from a re-analysis of the deposited data

How the results depend on the processing

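The count of 7 of 10 genes with a promoter IDR peak fell to 1, CycB3, in the stronger 50% of the IDR list, where 15.2% of all genes had one. It was 2 to 4 when 1 replicate was left out in turn and a summit was required in the top lists of the others: 2 without replicate 1 (CycA and CycD, 19.6% of all genes), 4 without replicate 2 (20.7%) and 4 without replicate 3 (21.0%). The requirement of 2 top lists is stricter by construction than the pooled list. Windows of 250 bp left 6 of the 7, CycD dropping out. The count over the other 48 cell cycle genes was 28, and it was 15 in the stronger 50% and 43 in the relaxed pooled list. The 7 genes with a promoter summit in all 3 relaxed lists became 2 with top lists, an alternative chosen after seeing the data. Under the alternatives, 30 recomputed counts of genes stayed within 1.5 times the reported one and 7 did not. The 30 include counts from the strongest pooled relaxed peaks. These peaks are the same as the IDR list, so those counts had to agree. The median relative signal over the bound members (0.791) ranged from 0.766 to 0.963. For single genes with an SD, 36 recomputed values moved by less than that SD. Those that leave out 1 replicate could not move by a full SD by construction. Those at 250 bp equalled the reported values. This count therefore says little about how stable the values are. The relative signal of Cdk1 has no SD at a limit of 100 bp, since there only replicate 1 matched the pooled summit (0.974); it was 0.848 over 3 replicates at 250 bp. No paired analysis was possible because there is 1 group, so no replicate numbers are shared between groups; differences between genes within replicates are given with the results. The lists limit what can be seen: depth is unknown, weak peaks near the end of the IDR list (Cdk2, CycD) depend on the cut, and a peak at a shared or neighbouring start cannot be assigned to a gene.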
